A study of Arabidopsis thaliana with 12 samples.

Results

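The cysteine-rich receptor-like kinases (CRKs) form a large family of receptor kinases in Arabidopsis thaliana. The 39 members described here were taken by gene identifier from a list of CRK family genes, out of 33602 genes in the files. The family was chosen by measured values of these data, since CRK30 was among the genes with the lowest stress-to-control ratios. Stress values of the family in WT, and those of CRK30 in either genotype, are therefore given as description, without p-values. Whole seedlings of 4 groups were profiled by RNA sequencing, with 3 libraries per group from separate experiments. They were ahl10-1 under stress, ahl10-1 in control, WT under stress and WT in control. WT was the accession Col-0, and ahl10-1 was a T-DNA insertion line (Salk_073165) in AHL10, a gene for an AT-hook DNA-binding protein. Seedlings were moved at day 7 to plates at -0.7 MPa, a low water potential made with PEG-8000 (stress), or to fresh plates at -0.25 MPa (control), and collected 96 h later.

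A CRK has an extracellular part with DUF26 domains, whose conserved cysteines give the family its name, a single membrane-spanning stretch and an intracellular serine/threonine kinase. CRKs are known in Arabidopsis for roles in the perception of extracellular reactive oxygen species, in immune signalling next to receptors such as FLS2, and in responses to abscisic acid and salt. Plasmodesmata-located proteins carry the same extracellular domains without the kinase, and many CRK genes lie side by side as tandem copies.

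AHL10, the targeted gene, had 16.5, 13.6 and 13.2 RPKM (reads scaled to gene length and library size) in ahl10-1 under stress, against 32.0, 31.6 and 32.3 RPKM in WT under stress. In control it had 12.4, 10.3 and 9.05 RPKM in ahl10-1, against 21.8, 22.2 and 22.5 RPKM in WT. Its log2 fold change in ahl10-1 against WT was -1.09 under stress and -1.01 in control, so ahl10-1, which is 1 insertion line, still had reads from the gene. All 16 root and 13 shoot marker genes had reads, as the whole-seedling label implies. Their summed levels in ahl10-1 under stress and in control overlapped for root (1495 to 2182 and 1637 to 1784 RPKM) and for shoot markers (33890 to 45280 and 38210 to 54410 RPKM). In WT under stress and in control the root sums also overlapped (1726 to 1824 and 1778 to 2268 RPKM), while the shoot sums did not (34640 to 37280 and 38570 to 45780 RPKM). Most of the root sum came from PYK10, a root beta-glucosidase, at a mean of 1760 RPKM in ahl10-1 under stress and 1630 RPKM in control. By edgeR, 3 of the 16 root markers rose under stress in ahl10-1: WOX5 (log2 fold change 1.38, adjusted p = 0.00183) and the root hair expansins EXPA7 (1.82, adjusted p = 0.00773) and EXPA18 (1.84, adjusted p = 0.00362). SCR fell among the root markers (adjusted p = 0.0348, edgeR) and LHCA1 among the 13 shoot markers (log2 fold change -0.60, adjusted p = 0.00996, edgeR). In WT 3 root markers rose and 1 fell under stress, and 0 shoot markers rose and 3 fell. Of all genes tested, 27.8% changed under stress in ahl10-1 and 24.2% in WT, so the marker counts do not exceed that background. The part of shoot and root proportions in the results was not tested. Libraries held 57996104 to 68555138 reads in genes, and the members 19534 to 34949 of them.

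Of the members, 35 lie on chromosome 4 in RefSeq's TAIR10.1 annotation, and 32 sit in 5 tandem arrays. The longest array holds 19 members, CRK5 to CRK24, and the next ones hold CRK36 to CRK40 (5 members) and CRK30 to CRK33 (4 members). CRK2 with CRK3, on chromosome 1, and CRK28 with CRK29 are pairs, and the other 7 members stand alone. Coding sequences of neighbouring members were 66.8% to 90.2% identical (median 71.6%, 43 pairs), and those of all other pairs 61.1% to 84.9% (median 66.95%). The pair with the highest identity was CRK19 and CRK20. Because copies that are alike can share reads, the longest identical stretches matter for the values below. CRK13 and CRK22 share a coding run of 309 bases, and no read falling wholly inside such a stretch can be assigned to 1 of the copies.

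The files give the share of each gene's reads that mapped to several places. Over all 12 libraries it was 4.70% for CRK6, 4.30% for CRK22, 3.91% for CRK13 and 2.54% for CRK8, with library maxima of 8.57%, 5.37%, 4.96% and 5.09%. CRK6 and CRK8 share a coding run of 368 bases. CRK27 followed at 0.327%, and for each of the remaining members the share was below that. For the family as a whole it was 0.171% to 0.387% of reads per library, against 1.25% to 2.33% over all genes. CRK16 and CRK17 share 339 coding bases because their annotated models overlap by 1190 bases on the same strand. CRK28 and CRK29 overlap by 470 bases on the same strand, and CRK10 and CRK11 by 32 bases on opposite strands. Values of these 6 genes are uncertain, since how reads in the overlaps were counted is not given in the sources used here.

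**Figure D1:**
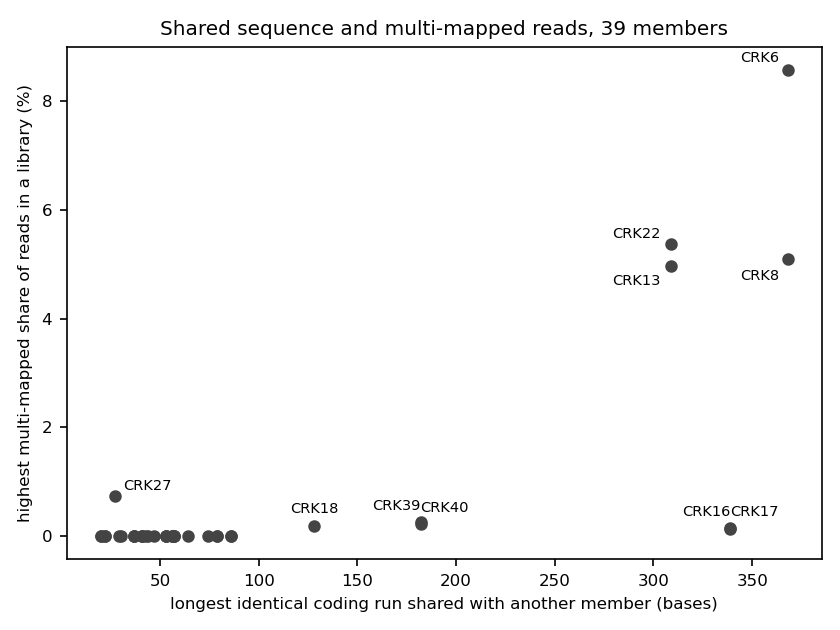
Each point is 1 of the 39 members, with the longest identical coding run it shares with another member on the x axis (bases) and the highest multi-mapped share of its reads in any library on the y axis (percent). CRK6, CRK8, CRK13 and CRK22 stand above the rest at 4.96% to 8.57%, and CRK16 and CRK17, whose run is 1 overlapping locus, lie near 0.

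The sequence just before the gene start was examined for the W-box core TTGAC, which WRKY factors, the transcription factors of immune and salicylic acid responses, are known to bind, and for ACGTG, the core of the abscisic acid response element. Both strands of the 250 bases before each annotated start were searched, and the letters of the 2 motifs overlap by at most 2 bases. The window overlaps another annotated gene for CRK15, CRK16, CRK24, CRK25, CRK26, CRK28, CRK29 and CRK34. That gene is the neighbouring CRK for CRK15, CRK16 and CRK28. TTGAC was present in 29 of 39 members (74.4%), against 44.9% of 27443 protein-coding genes, and 2 or more copies in 16 members (41%) against 14.1%. ACGTG was present in 11 members (28.2%), against 22.9%, and 2 or more matches in 4 members (10.3%) against 8.84%. The promoters of 4 members are shown because they span the range from no core to the most cores and include members with low and with high levels under stress. Capitals mark TTGAC or its complement GTCAA, and each sequence is printed in the direction of the gene. They lie at chr4:6963271-6963520 for CRK30, chr4:418077-418326 for CRK41 and chr4:12121119-12121368 for CRK6, all on the plus strand, and at chr4:12143859-12144108 on the minus strand for CRK11, in RefSeq's TAIR10.1. CRK30 has several annotated starts, of which the outermost was used.
CRK30: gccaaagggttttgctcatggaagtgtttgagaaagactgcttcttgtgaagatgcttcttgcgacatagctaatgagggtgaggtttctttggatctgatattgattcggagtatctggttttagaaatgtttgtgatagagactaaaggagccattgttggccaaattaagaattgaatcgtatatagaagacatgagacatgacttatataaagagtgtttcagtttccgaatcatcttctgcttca
CRK41: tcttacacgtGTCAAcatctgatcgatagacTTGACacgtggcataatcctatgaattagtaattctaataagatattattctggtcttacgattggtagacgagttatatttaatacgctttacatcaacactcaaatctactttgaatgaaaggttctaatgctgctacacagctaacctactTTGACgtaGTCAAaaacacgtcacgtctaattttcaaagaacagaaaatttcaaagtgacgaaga
CRK6: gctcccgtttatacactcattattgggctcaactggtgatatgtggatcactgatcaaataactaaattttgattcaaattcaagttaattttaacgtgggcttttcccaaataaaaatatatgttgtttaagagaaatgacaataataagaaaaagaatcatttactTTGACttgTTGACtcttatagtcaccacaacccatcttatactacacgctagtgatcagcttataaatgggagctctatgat
CRK11: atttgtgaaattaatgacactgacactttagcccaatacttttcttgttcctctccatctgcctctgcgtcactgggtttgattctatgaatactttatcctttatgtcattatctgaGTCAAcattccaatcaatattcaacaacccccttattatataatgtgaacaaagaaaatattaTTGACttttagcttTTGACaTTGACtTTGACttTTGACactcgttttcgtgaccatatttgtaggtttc
CRK30 had no TTGAC core, CRK6 had 2, CRK41 had 4 and CRK11 had 6. Of ACGTG, which is not marked, CRK41 had 6 matches, CRK6 had 1, and CRK30 and CRK11 had 0. Overlapping ACGTG matches on opposite strands count separately. Of the 6 members called higher under stress in ahl10-1, 5 held a TTGAC core, as did 5 of the 9 called lower and 15 of the 19 tested but not called. A match describes letters in this window and is not a measured binding site.

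CRK30 (AT4G11460) had 0.229, 0.264 and 0.343 RPKM in ahl10-1 under stress, against 5.86, 10.7 and 12 RPKM in ahl10-1 in control. In WT it had 0.187, 0.363 and 0.136 RPKM under stress, against 8.54, 12.2 and 7.78 RPKM in control. All 6 stress libraries lay below all 6 control libraries. The log2 fold change of stress over control was -5.19 (SE 0.409) in ahl10-1 and -5.44 (SE 0.419) in WT. The authors' deposited table gives -3.83 for CRK30 in WT, in a fit whose settings are not given in the sources used here. In whole seedlings, fewer cells of a type and less RNA per cell cannot be told apart, for this gene and for those below. CRK31, the neighbour of CRK30, had 0 to 0.085 RPKM in the stress libraries of both genotypes, against 0.092 to 0.183 RPKM in the control libraries, at 0 to 26 reads per library. In ahl10-1 its log2 fold change was -1.64 (adjusted p = 0.0657, edgeR). It had 26, 23 and 12 reads in ahl10-1 in control and 12, 4 and 4 under stress. Mainly the control libraries, where it is high, thus reached the filter's minimum count of 10. It passed in the ahl10-1 libraries alone with the replicate number as a block (adjusted p = 0.0419, edgeR), where few residual degrees of freedom remain. By DESeq2 it also passed (adjusted p = 0.0359). CRK32, next to it, ranged from 0.185 to 0.614 RPKM with overlapping groups in ahl10-1, and CRK33 had 0 reads in all 12 libraries, which allows up to 3 reads in each.

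**Figure D2:**
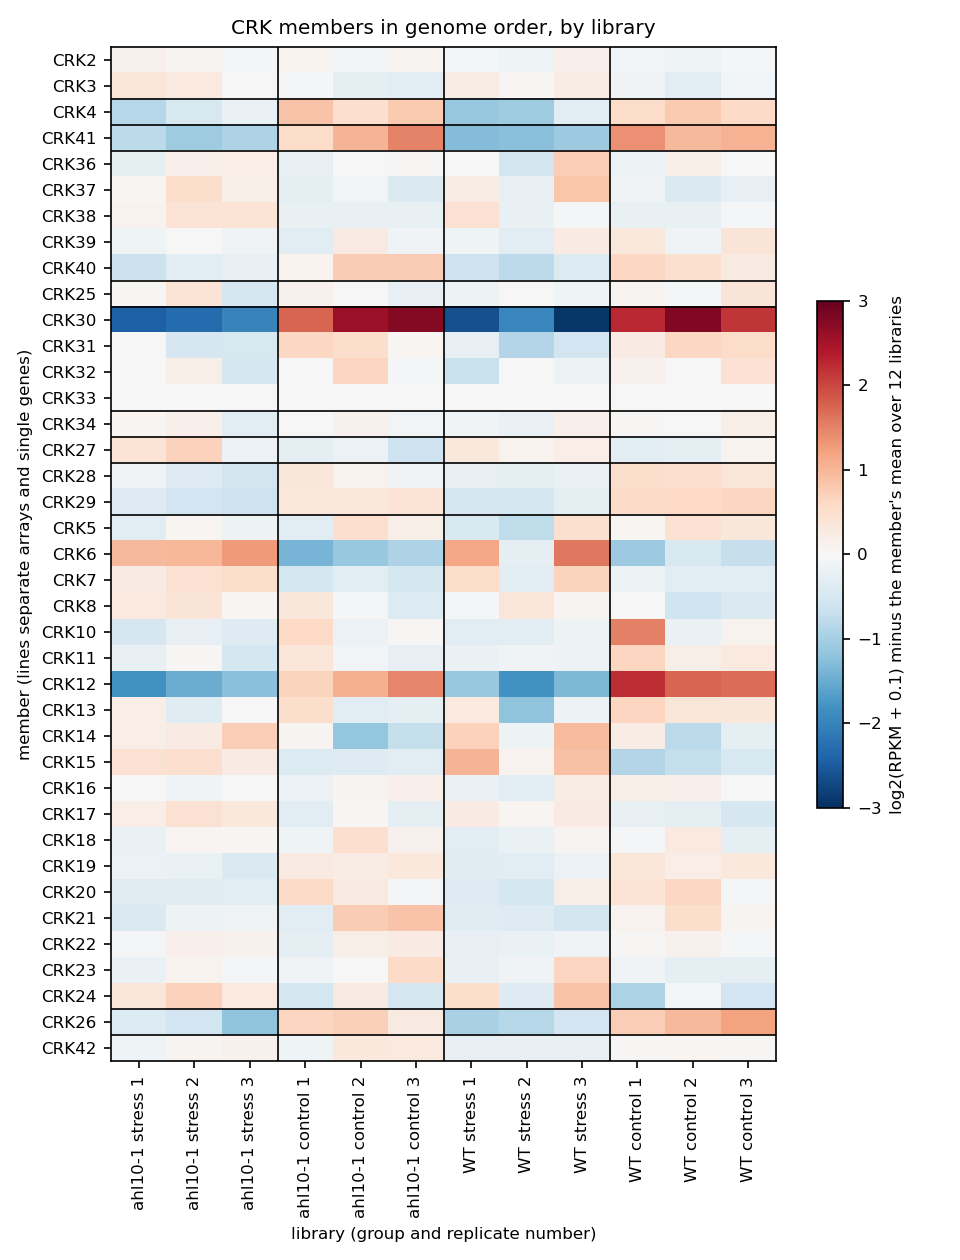
Rows are the 39 members in genome order, with lines between arrays, and columns are the 12 libraries by group. Color gives log2(RPKM + 0.1) minus the member's mean over the 12 libraries. CRK30, CRK12 and CRK41 are low in all 6 stress libraries, CRK6 is low in all 6 control libraries, and the long array from CRK5 to CRK24 holds rows of both kinds.

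Under stress in ahl10-1, 15 of the 38 members other than CRK30 changed (39.5% of the list), of which 6 rose (15.8%) and 9 fell (23.7%). The test was edgeR's quasi-likelihood F test, and a change was called where p, adjusted over 22604 genes, was under 0.05. Of all genes tested, 27.8% changed in this comparison, 14.2% rising and 13.5% falling, so falls among the members lay above that background and rises close to it. Another 4 members were too low to be tested (CRK33, CRK37, CRK38 and CRK39). They count in the member shares, while the background shares are over tested genes alone. CRK7, counted as a rise, and CRK20, counted as a fall, reached the filter's minimum count of 10 in ahl10-1 only where they were high. Their calls are given as description. The median log2 fold change of the 34 tested members was -0.255, against -0.000843 for all genes tested, and the median size of change without regard to sign was 0.63, against 0.212. That median size was also above all genes in ahl10-1 against WT, at 0.193 against 0.093 in control and 0.177 against 0.0848 under stress. No member passed the test between genotypes. In WT, 14 members were past the same threshold, 4 higher and 10 lower, where 24.2% of all genes were, 11.7% higher and 12.5% lower. This WT count is description only, because the WT stress values were used to choose the family. In both genotypes, 12 members were past the threshold. CRK7, CRK20 and CRK27 were past it in ahl10-1 alone and CRK11 and CRK31 in WT alone, and for none of these did the interaction test pass the threshold.

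CRK12 (AT4G23200) had the most negative log2 fold change of the members after CRK30. Its level was 0.102, 0.154 and 0.197 RPKM in ahl10-1 under stress, against 1.02, 1.38 and 1.86 RPKM in ahl10-1 in control. The groups did not overlap, and the log2 fold change was -3.32 (SE 0.368, adjusted p = 6.66e-05, edgeR). In WT it had 0.223, 0.102 and 0.180 RPKM under stress, against 3.21, 2.30 and 2.18 RPKM in control, with a log2 fold change of -3.99.

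CRK41 (AT4G00970), a member outside the arrays, fell to 0.696, 0.547 and 0.622 RPKM in ahl10-1 under stress, against 1.89, 2.67 and 3.72 RPKM in control. It fell by 2.25 on the log2 scale (SE 0.26, adjusted p = 8.99e-05, edgeR), and the groups did not overlap. In WT it had 0.454, 0.473 and 0.542 RPKM under stress, against 3.42, 2.58 and 2.70 RPKM in control. CRK26 (AT4G38830), also outside the arrays, had 0.367, 0.313 and 0.168 RPKM in ahl10-1 under stress, against 0.861, 0.910 and 0.649 RPKM in control. It fell by 1.59 on the log2 scale (SE 0.263, adjusted p = 0.00102, edgeR). Its WT levels were 0.215, 0.243 and 0.317 RPKM under stress, against 0.934, 1.12 and 1.32 RPKM in control, again without overlap.

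CRK4, CRK28 and CRK29 were also among the members that fell. CRK4 (AT3G45860), whose overproduction enhances defence in Arabidopsis, had 1.34, 1.77 and 2.17 RPKM in ahl10-1 under stress, against 4.62, 3.62 and 4.45 RPKM in control (log2 fold change -1.33, SE 0.249, adjusted p = 0.00223, edgeR). WT libraries had 1.09, 1.16 and 2.00 RPKM under stress, against 3.76, 4.45 and 3.77 RPKM in control, so the stress libraries were the lower ones in both genotypes. CRK28 (AT4G21400), which associates with the FLS2 co-receptor BAK1, had 4.80, 3.93 and 3.51 RPKM in ahl10-1 under stress, against 6.63, 5.57 and 4.85 RPKM in control. It fell by 0.552 on the log2 scale (SE 0.103, adjusted p = 0.00213, edgeR), a small shift in which the highest stress library nearly met the lowest control library. Its neighbour CRK29 (AT4G21410) had 10.2, 9.02 and 8.70 RPKM in ahl10-1 under stress, against 16.7, 16.7 and 18.0 RPKM in control. CRK29 had the smallest adjusted p among the members in this comparison (log2 fold change -0.967, SE 0.0859, adjusted p = 1.41e-05, edgeR). In WT, CRK28 had 4.37, 4.30 and 4.54 RPKM under stress, against 7.59, 7.41 and 6.75 RPKM in control, and CRK29 had 9.48, 9.48 and 10.9 RPKM against 20.1, 20.5 and 21.1 RPKM.

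The members with the highest levels per length over all libraries were CRK19, CRK40 and CRK18, with means of 16.2, 15.7 and 15.5 RPKM, which lie closer together than the spread of their libraries. The order differed between groups: CRK3 had the highest mean under stress, at 16.5 RPKM in ahl10-1 and 15.8 RPKM in WT, while in control it was CRK40 in ahl10-1, at 21.7 RPKM, and CRK29 in WT, at 20.6 RPKM. CRK19 (AT4G23270), whose overproduction is known to cause cell death in Arabidopsis, had 14.1, 13.7 and 11.7 RPKM in ahl10-1 under stress, against 19.2, 18.5 and 19.8 RPKM in control (log2 fold change -0.626, SE 0.0851, adjusted p = 0.000274, edgeR). WT libraries had 12.3, 12.4 and 13.9 RPKM under stress, against 20.5, 18.2 and 19.7 RPKM in control. CRK40 (AT4G04570) had 9.34, 11.7 and 12.5 RPKM in ahl10-1 under stress, against 15.7, 24.7 and 24.7 RPKM in control. It fell by 1.04 on the log2 scale (SE 0.216, adjusted p = 0.00488, edgeR), with 1 control library lower than the other two. In WT, CRK40 had 9.45, 8.38 and 11 RPKM under stress, against 22.7, 20.5 and 17.7 RPKM in control. CRK18 (AT4G23260) had 13.3, 16.1 and 16.1 RPKM in ahl10-1 under stress, against 14.1, 21.9 and 16.7 RPKM in control, and 12.4, 13.4 and 16.3 RPKM in WT under stress, against 14.9, 18.7 and 12.8 RPKM in WT in control. Its groups overlapped in both genotypes, and it did not pass the test in ahl10-1 (adjusted p = 0.31, edgeR). CRK20 was the last of the 9 that fell, at 4, 4 and 4 reads in ahl10-1 under stress, against 21, 14 and 8 reads in control (log2 fold change -1.83, SE 0.629, adjusted p = 0.0479, edgeR). In ahl10-1 only control libraries, where it is high, had 10 or more reads, the filter's minimum count. With no filter on low counts its adjusted p was 0.0669 (edgeR), and with the replicate number as a block it was 0.0763 (edgeR). In all, 11 of 17 alternatives ended the call, all 6 that left out an ahl10-1 library among them (adjusted p = 0.0542 to 0.134).

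Among members above 1 RPKM, 3 rose under stress in ahl10-1, each by less than 1 on the log2 scale. CRK3 (AT1G70530) had 18.2, 17.2 and 14.1 RPKM in ahl10-1 under stress, against 13.7, 11.7 and 11 RPKM in control (log2 fold change 0.36, SE 0.0866, adjusted p = 0.00874, edgeR). WT libraries had 16.5, 14.5 and 16.3 RPKM under stress, against 13.0, 11.2 and 13.2 RPKM in control, and its stress libraries were the higher ones in both genotypes. CRK2, the neighbour of CRK3 and known to act on the NADPH oxidase RBOHD, stayed between 10.7 and 13.1 RPKM in all 12 libraries. CRK17 (AT4G23250), also listed as EMB1290, had 7.24, 8.75 and 7.88 RPKM in ahl10-1 under stress, against 5.03, 6.49 and 5.12 RPKM in control (log2 fold change 0.45, SE 0.124, adjusted p = 0.0193, edgeR). WT libraries had 7.48, 6.61 and 7.52 RPKM under stress, against 5.39, 5.25 and 4.42 RPKM in control, and CRK16, whose model overlaps it, did not pass the same test (log2 fold change -0.15, adjusted p = 0.582). The call of CRK17 was lost without ahl10-1 stress replicate 2 or 3 or ahl10-1 control replicate 1 or 3 (adjusted p = 0.0579 to 0.0777, edgeR). CRK27 (AT4G21230) had 4.98, 6.12 and 3.27 RPKM in ahl10-1 under stress, against 3.06, 3.31 and 2.39 RPKM in control, and 4.69, 4.00 and 4.27 RPKM in WT under stress, against 2.99, 3.04 and 4.01 RPKM in WT in control. The CRK27 groups overlapped in both genotypes. Its log2 fold change in ahl10-1 was 0.63 (SE 0.182, adjusted p = 0.0222), and the call was lost with the ahl10-1 libraries fitted alone (adjusted p = 0.0618, edgeR in both fits) and without ahl10-1 stress replicate 1 or 2 or ahl10-1 control replicate 3 (adjusted p = 0.0558 to 0.104).

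The largest rises in ahl10-1 were in 3 members with low levels, which are named here after their values were seen. CRK6 (AT4G23140), which with CRK7 (AT4G23150) is known to act in responses to extracellular reactive oxygen species, had 0.724, 0.734 and 0.916 RPKM in ahl10-1 under stress, against 0.0603, 0.0906 and 0.121 RPKM in control. These are 114, 109 and 133 reads against 10, 14 and 18 reads, and the log2 fold change was 3.02 (SE 0.522, adjusted p = 0.00138, edgeR). Without multi-mapped reads it was 3.05. In WT, CRK6 had 0.838, 0.251 and 1.15 RPKM under stress, against 0.0961, 0.202 and 0.162 RPKM in control, and WT stress replicate 2 was the low one. CRK7 had 10, 13 and 14 reads in ahl10-1 under stress, against 0, 2 and 0 reads in control. The summed reads, 37 against 2, give a depth-adjusted ratio of 18.8, with a 95% interval of 4.86 to 161 that covers counting error only. In both genotypes CRK7 had 10 or more reads, the filter's minimum count, only in stress libraries, where it is high. Its pass of the test is therefore given as description (adjusted p = 0.0117, edgeR). Its fitted log2 fold change of 3.95 rests on those 2 control reads, both in ahl10-1 control replicate 2, and it was 6.65 without that library, where the remaining control libraries are at 0 and the fitted value is no bound. In WT it had 16, 2 and 16 reads under stress, against 4, 2 and 2 reads in control, so the groups overlapped there. CRK15 (AT4G23230) had 0.339, 0.351 and 0.280 RPKM in ahl10-1 under stress, against 0.138, 0.142 and 0.151 RPKM in control (log2 fold change 1.09, SE 0.329, adjusted p = 0.0281, edgeR), and 0.546, 0.243 and 0.486 RPKM in WT under stress, against 0.0717, 0.0930 and 0.128 RPKM in WT in control. The call was lost without ahl10-1 stress replicate 1 or 2 or any 1 of the ahl10-1 control replicates (adjusted p = 0.0541 to 0.0795, edgeR). The interaction of CRK15 did not pass the test (log2 -0.97, SE 0.473, unadjusted p = 0.0641, adjusted p = 1, edgeR).

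**Figure D3:**
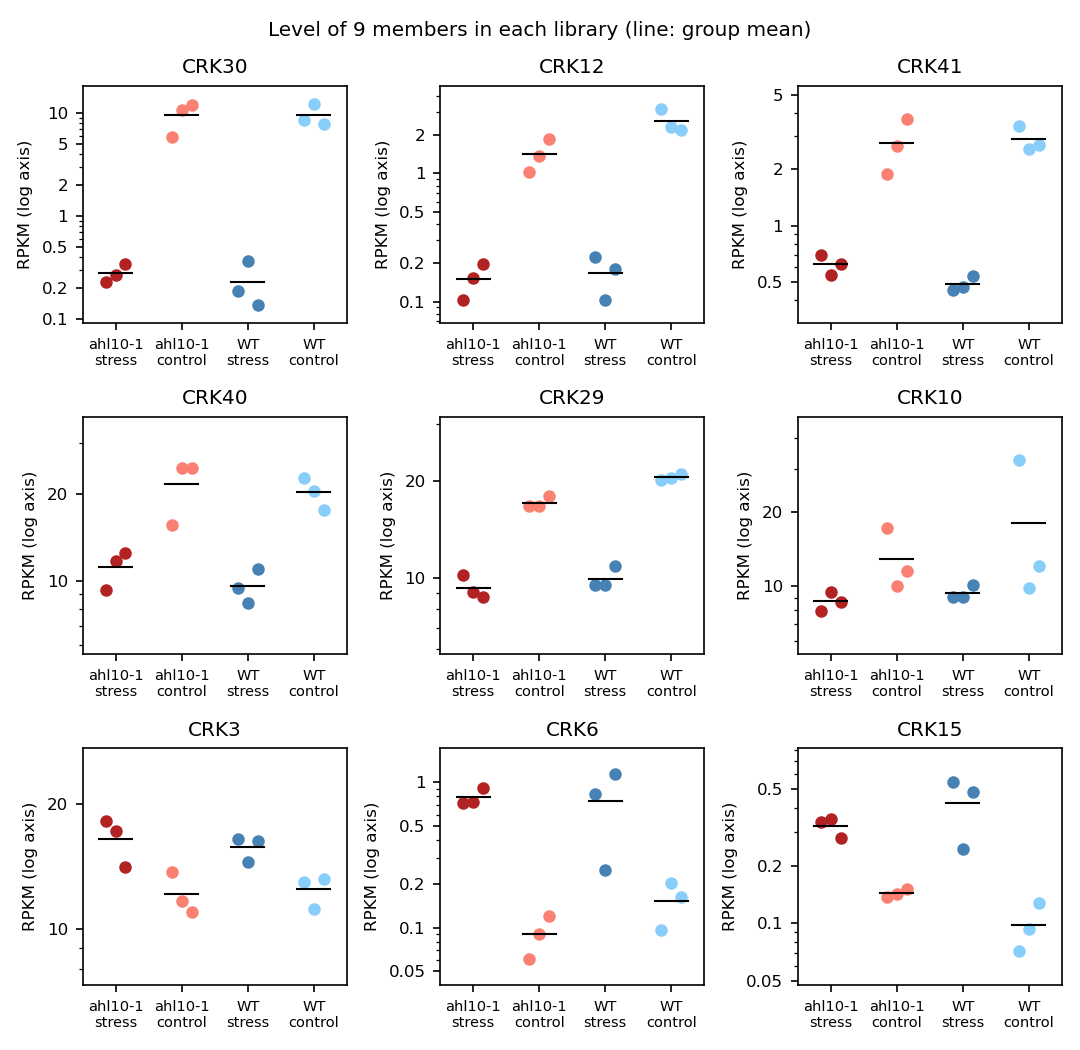
Each panel plots the RPKM of 1 member on a log axis in each of the 12 libraries, with a line at each group's mean (3 libraries per group). CRK30, CRK12, CRK41, CRK40 and CRK29 are lower under stress in both genotypes, CRK3, CRK6 and CRK15 are higher, and CRK10 has 1 WT control library, at 32.5 RPKM, far above the other two.

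**Figure D4:**
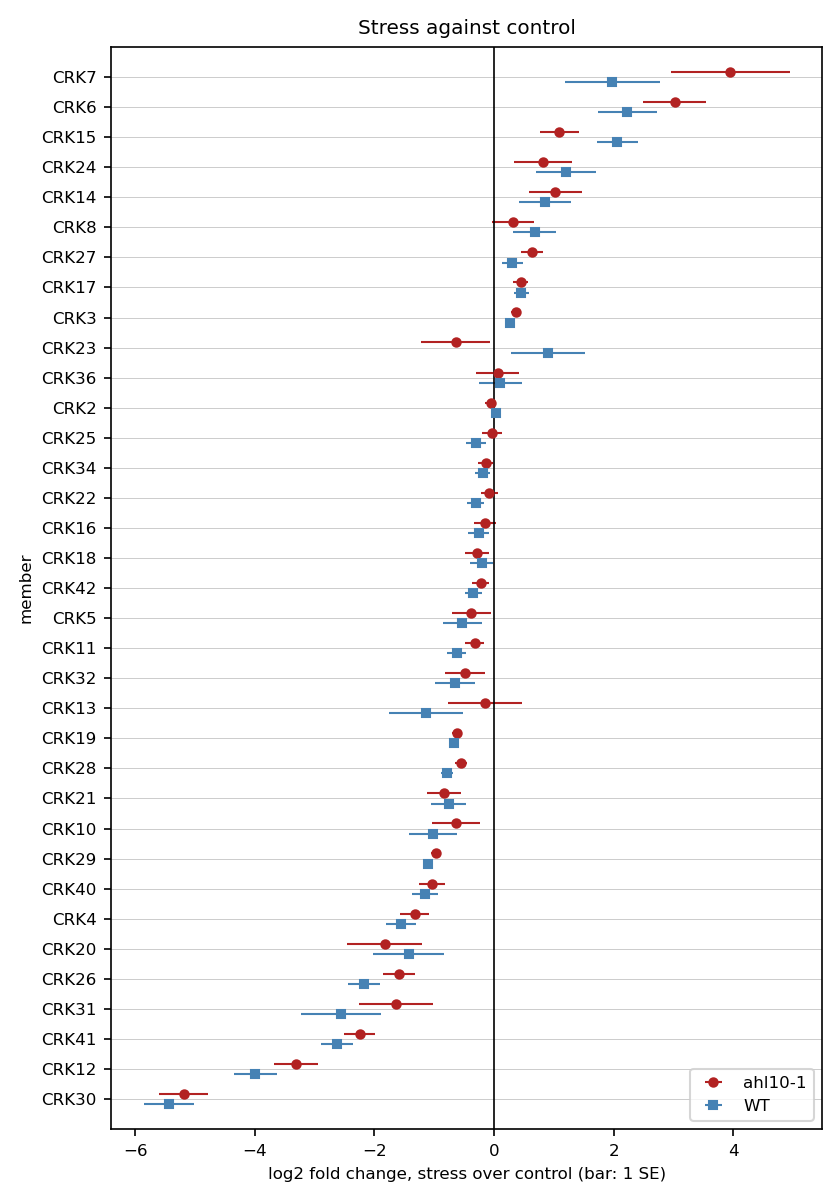
Points give the log2 fold change of stress over control for the 35 tested members, in ahl10-1 (circles) and WT (squares), with bars of 1 SE, ordered by the mean of both. CRK7 and CRK6 lie at the top and CRK12 and CRK30 at the bottom, and most members lie between -1 and 1 in both genotypes.

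Individual libraries stood out for some low or immune-related members. WT stress replicate 2 was the lowest stress library for CRK6, CRK7, CRK13 and CRK14, and it had 0.745 RPKM of BGL2 (PR2, a pathogenesis-related glucanase), against 3.10 and 5.72 RPKM in the other WT stress libraries. It was the lowest of its group for 19 of the 35 tested members, against 31.5% of all tested genes. WT stress replicate 3 was the highest of its group for 23 of 35 members, against 29.7% of all tested genes. Libraries of ahl10-1 departed as well. Its control replicate 1 was the lowest of the group for 18 of 35 members, against 18.8% of all tested genes. Stress replicate 1 of ahl10-1 was the lowest for 17 members, against 19.7%, and ahl10-1 control replicate 3 the highest for 12, against 9.86%. CRK10 (AT4G23180), known in Arabidopsis from a mutant allele that alters xylem vessels, had 32.5, 9.82 and 12.1 RPKM in WT in control. The same first library had 97.9 RPKM of WRKY40, against 3.26 and 19.2 RPKM in the other WT control libraries. In ahl10-1, CRK10 had 7.96, 9.49 and 8.66 RPKM under stress, against 17.2, 9.99 and 11.5 RPKM in control, and it did not pass the test (log2 fold change -0.63, SE 0.397, adjusted p = 0.268, edgeR). It passed with the ahl10-1 libraries alone (adjusted p = 0.0391, edgeR) and without WT control replicate 1 (adjusted p = 0.014, edgeR). The part of these libraries' other differences in the CRK values was not tested.

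The other tested members did not pass the test in ahl10-1. CRK21 came close, with 6.12, 7.53 and 7.77 RPKM under stress, against 6.59, 14.1 and 15.1 RPKM in control (log2 fold change -0.84, adjusted p = 0.0557, edgeR). With the replicate number as a block its adjusted p was 0.049 (edgeR). It was 0.0466 with that block in the ahl10-1 libraries alone (edgeR), where few residual degrees of freedom remain. Without ahl10-1 control replicate 1, the lowest control library, it was 0.000444 (edgeR), and by DESeq2 it was 0.00944. CRK5, whose overproduction in Arabidopsis raises sensitivity to abscisic acid, ranged from 1.51 to 1.99 RPKM under stress in ahl10-1 and from 1.49 to 2.75 RPKM in control. CRK36, known to act with ARCK1 in abscisic acid and osmotic responses, averaged 0.437 ± 0.087 RPKM under stress and 0.396 ± 0.0505 RPKM in control in ahl10-1 (SD, n = 3 each). CRK25 and CRK34 averaged 8.45 ± 2.59 and 3.38 ± 0.602 RPKM under stress in ahl10-1, and 8.16 ± 1.11 and 3.52 ± 0.276 RPKM in control (SD, n = 3 each). CRK11, with the most W-box cores, ranged from 3.15 to 4.70 RPKM under stress and from 3.81 to 5.94 RPKM in control in ahl10-1. CRK14 and CRK24 had higher stress than control libraries throughout in ahl10-1, at 0.733 to 1.10 against 0.223 to 0.668 RPKM and at 0.339 to 0.479 against 0.149 to 0.329 RPKM, with adjusted p = 0.109 and 0.236 (edgeR). CRK14 passed with the replicate number as a block (adjusted p = 0.0294, edgeR) and without ahl10-1 control replicate 1 (adjusted p = 0.0335, edgeR). CRK42 passed only without that same library (adjusted p = 0.0135, edgeR), against 0.26 with all libraries. CRK8, CRK13 and CRK23 stayed between 0.0455 and 0.274 RPKM in ahl10-1, with overlapping groups. CRK38, which was too low for the test, had 4, 8 and 8 reads under stress and 0 reads in each control library in ahl10-1. CRK37 had 6, 13 and 7 reads against 2, 4 and 0 reads, and CRK39 had 2, 3 and 2 reads against 0, 7 and 2 reads.

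The longest array held changes in both directions. In this array from CRK5 to CRK24, 4 members rose, 3 fell and 12 did not pass the test in ahl10-1. Of all genes tested, 14.2% rose and 13.5% fell, so changes in both directions are not particular to these 19 members. The calls of CRK15, CRK17 and CRK20 were lost under some alternatives. Log2 fold changes lay between -3.32 for CRK12 and 3.95 for CRK7, the value that rests on 2 control reads. CRK40 fell while CRK36, the other tested member of its array, did not pass the test, and CRK3 rose while CRK2 did not. CRK28 and CRK29 both fell. Summed over all members, the family had 149.9, 163.7 and 145.8 RPKM in ahl10-1 under stress, against 182.8, 205.9 and 203.9 RPKM in control. In WT the sums were 141.1, 135.5 and 157.4 RPKM under stress, against 222.6, 201.3 and 192.9 RPKM in control. Without CRK30 the mean sums were 152.8 ± 9.39 RPKM under stress and 188.0 ± 9.73 RPKM in control in ahl10-1, and 144.4 ± 11.5 and 196.1 ± 15.7 RPKM in WT (SD, n = 3 each).

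The comparison of ahl10-1 with WT asks whether the levels of the family differ with AHL10. No member passed the test under stress, in control or for the interaction (edgeR), where 0.0265%, 0.0177% and 0% of all genes tested did. DESeq2 also called none. At an unadjusted p under 0.05 there were 2 members under stress, 3 in control and 0 for the interaction, against 3.75%, 5.34% and 1.42% of all genes tested. Under stress these were CRK22 and CRK42. CRK22 (AT4G23300) had 9.40, 10.7 and 10.4 RPKM in ahl10-1, against 8.07, 8.28 and 8.83 RPKM in WT (log2 fold change 0.33, SE 0.144, unadjusted p = 0.0425, adjusted p = 0.999, edgeR). CRK42 (AT5G40380) had 5.22, 6.01 and 6.28 RPKM in ahl10-1, against 4.82, 4.84 and 4.88 RPKM in WT (log2 fold change 0.33, SE 0.141, unadjusted p = 0.0398, adjusted p = 0.999, edgeR). All 3 ahl10-1 libraries lay above all 3 WT libraries for both genes, as they did for 3 members in all and for 2.6% of all genes tested. The third smallest p was that of CRK17 (log2 fold change 0.20, unadjusted p = 0.133, edgeR), whose libraries are given above.

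In control, the 3 members under an unadjusted p of 0.05 were CRK28, CRK12 and CRK29, each lower in ahl10-1. Their log2 fold changes were -0.29 (SE 0.102, unadjusted p = 0.0137), -0.78 (SE 0.307, unadjusted p = 0.0266) and -0.19 (SE 0.0845, unadjusted p = 0.0414), with an adjusted p of 0.854 for each (edgeR). The libraries given above for these genes did not overlap between ahl10-1 and WT in control, with ahl10-1 lower, which held for 5 members in all and for 5.88% of all genes tested. For the interaction, the stress change in ahl10-1 minus that in WT, the smallest p-values among members above 1 RPKM were those of CRK28, CRK26 and CRK12. The differences were 0.23 (SE 0.145), 0.59 (SE 0.37) and 0.67 (SE 0.513) on the log2 scale, with unadjusted p = 0.132, 0.135 and 0.217 and adjusted p = 1 for each (edgeR). For CRK30 itself the difference between genotypes was 0.34 (SE 0.489) under stress and 0.08 (SE 0.313) in control. The authors' deposited tables list no member under an adjusted p of 0.05 for the genotype under stress or in control, the lowest being 0.282 and 1.

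**Figure D5:**
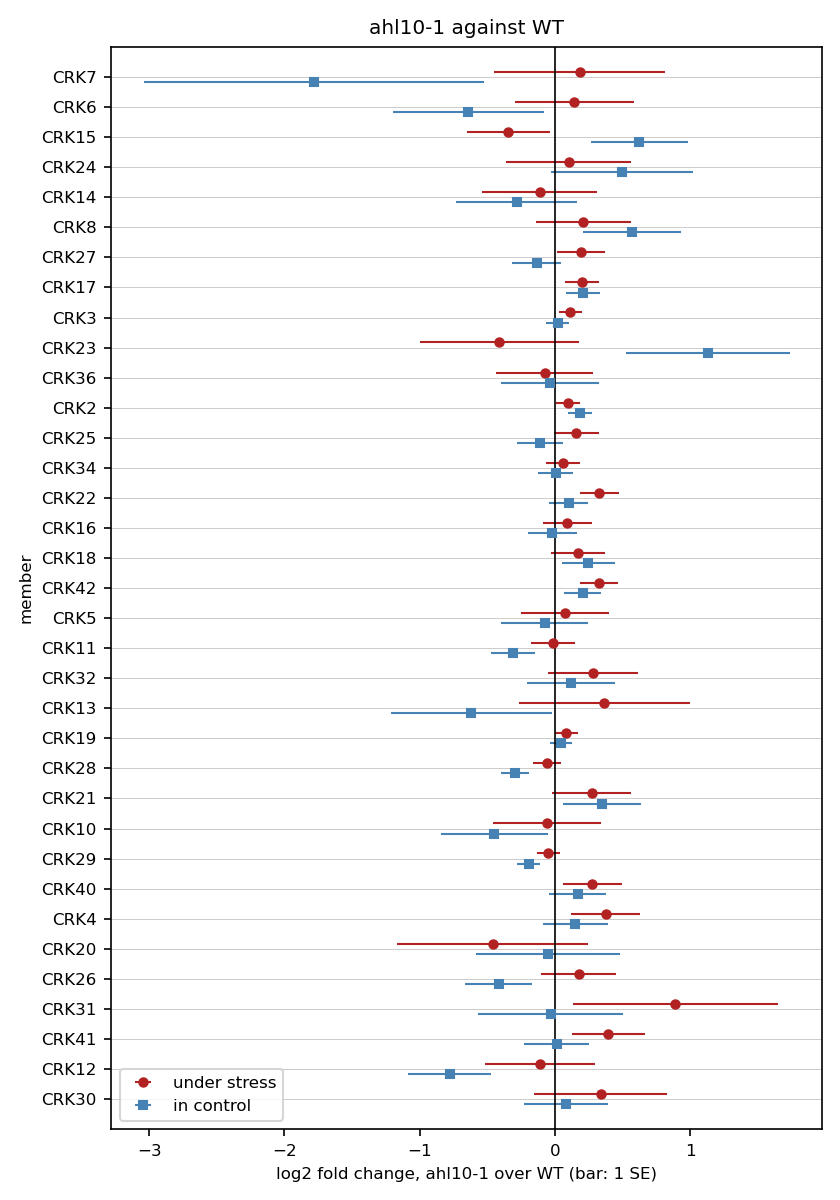
Points give the log2 fold change of ahl10-1 over WT for the 35 tested members under stress (circles) and in control (squares), with bars of 1 SE, in the order of the stress plot. No member passed the adjusted threshold, and the wide bars belong to members with few reads, such as CRK7 and CRK31.

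Related genes were taken from 4 lists. Of 7 other genes with a CRK number, 5 were tested and 1 changed under stress in ahl10-1 (14.3%). This was AT4G00960, with 0.520, 0.549 and 0.315 RPKM under stress, against 1.12, 1.07 and 1.10 RPKM in control (log2 fold change -1.33, SE 0.255, adjusted p = 0.0025, edgeR). EP1 and AT1G70740 missed the threshold, with log2 fold changes of -0.53 (adjusted p = 0.0574, edgeR) and -0.30 (adjusted p = 0.0571, edgeR). Both passed it with the ahl10-1 libraries fitted alone with a replicate block (adjusted p = 0.0233 and 0.0377, edgeR), where few residual degrees of freedom remain. Of the 8 plasmodesmata-located proteins, 6 changed (75%), of which 5 fell and 1 rose. PDLP3 had 16.1, 16.9 and 17.2 RPKM under stress, against 29.6, 40.0 and 36.2 RPKM in control (log2 fold change -1.15, SE 0.144, adjusted p = 0.000162, edgeR). PDLP1 had 3.07, 3.04 and 2.19 RPKM under stress, against 1.39, 1.6 and 1.15 RPKM in control, and rose by 0.92 on the log2 scale (SE 0.196, adjusted p = 0.00463, edgeR). PDLP8 averaged 2.70 RPKM under stress and 3.43 RPKM in control (adjusted p = 0.0147, edgeR), and its adjusted p was 0.0662 in the ahl10-1 libraries alone with a replicate block, 0.0594 without ahl10-1 stress replicate 2 and 0.0557 without ahl10-1 control replicate 2. Without ahl10-1 stress replicate 2, 2 of the 8 changed.

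Of 17 signalling partners in pattern-triggered immunity, 4 changed in ahl10-1 (23.5%), 2 rising and 2 falling. With the ahl10-1 libraries fitted alone with a replicate block 7 did, 1 rising and 6 falling, in a fit with few residual degrees of freedom. CPK5, a calcium-dependent kinase, fell by 0.346 on the log2 scale (SE 0.0643, adjusted p = 0.00207, edgeR). The NADPH oxidase gene RBOH F rose by 0.39 (SE 0.093, adjusted p = 0.00847, edgeR). FLS2, the flagellin receptor, had 3.36, 4.06 and 2.74 RPKM under stress, against 10.0, 7.84 and 7.61 RPKM in control (log2 fold change -1.40, SE 0.367, adjusted p = 0.018, edgeR). Its call was lost without ahl10-1 stress replicate 1 or 3 or ahl10-1 control replicate 1 (adjusted p = 0.0563 to 0.0636), and 2 of the 17 partners changed without either of those stress libraries. Of 26 salicylic acid and WRKY defence genes, 25 were tested and 8 changed (30.8%), 2 rising and 6 falling. WRKY54, a WRKY factor of salicylic acid responses, had 0.891, 1.20 and 1.38 RPKM under stress, against 3.92, 4.36 and 3.34 RPKM in control (log2 fold change -1.81, SE 0.196, adjusted p = 5.39e-05, edgeR). NPR4, a salicylic acid receptor, fell by 0.402 (SE 0.0757, adjusted p = 0.00223, edgeR). BGL2 went the other way, with 3.32, 2.03 and 2.80 RPKM under stress, against 0.336, 0.138 and 0.233 RPKM in control (log2 fold change 3.44, SE 0.634, adjusted p = 0.00232, edgeR). Except for the plasmodesmata-located proteins, these shares lie near or below the 27.8% of all genes that changed in ahl10-1. In WT the list shares lay above the 24.2% of all genes that changed under stress. They were 42.9% of the other CRK-numbered genes (3 of 7) and 37.5% of the plasmodesmata-located proteins (3 of 8). For signalling partners the WT share was 35.3% (6 of 17, 5 lower), and for salicylic acid and WRKY genes 42.3% (11 of 26, 9 lower). No gene of the 4 lists passed the genotype tests under stress or in control (edgeR), nor did DESeq2 call one.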

How the data were processed

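For each of the 12 libraries, strand-specific and oligo-dT selected per the labels, the authors deposited estimated counts by gene, beside an RPKM value, the length used and a multi-mapped fraction. These deposited counts of reads, as their column is headed, were rounded to whole numbers here. The deposited RPKM values are scaled to a library total, and 92.4% to 93.3% of that total fell in genes. A multi-mapped fraction of each gene's reads is taken as deposited. The log2 fold change, p-value and adjusted p-value of each gene in the authors' deposited comparison tables are used for the family alone. Per the submitters' processing notes, the genome build was TAIR10 and the tools were CASAVA, bcl2fastq 1.8.4, Bowtie2 and DESeq2, with no roles. The counter, the annotation and the use of strand are not given in the sources used here.

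Samples were grouped by their labels. The filterByExpr filter (minimum count 10, minimum total 15) kept 22604 of 33602 genes. The robust quasi-likelihood fit of edgeR 4.0.16 (R 4.3.3) used TMM factors (0.886 to 1.06), 4 group means and 8 residual degrees of freedom, at a biological coefficient of variation of 0.144. Benjamini-Hochberg adjustment ran over all genes tested in each comparison, with calls at an adjusted p under 0.05. The standard error of a log2 fold change is its size over the root of F. The fit was tested on simulated data. Where a library has 0 reads of a gene, up to 3 are possible, for counting error only.

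The members, the gene lists and the tests were chosen with earlier results of these data known. Among members with at least 1 RPKM in the highest group, values per library are given for up to 6 rises and 6 falls with stress, the 3 highest levels, and the 3 smallest p-values of each genotype comparison and of the interaction, plus up to 3 genes per list. Members outside this rule were named after their values were seen, to account for the whole family.

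Same-numbered ahl10-1 libraries, by their titles, deviated together from their group means (r = 0.112, 0.110 and 0.188 for replicates 1, 2 and 3), so the numbers were taken to pair the ahl10-1 libraries. In no other comparison were all 3 over 0.1, though ahl10-1 and WT in control gave 0.148, 0.169 and -0.0997. Libraries with different numbers were not correlated as a reference. The calls reported come from the fit without a replicate block.

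Alternatives were DESeq2's size factors, DESeq2 1.42.0, no filter, the compared groups alone, the replicate block, counts without the multi-mapped part, and each library left out in turn. A block within the compared groups alone was added after the data were seen.

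Promoters and coding sequences come from RefSeq's TAIR10.1 genome and annotation, with pairwise global alignment in Biopython 1.88. An array joins members with at most 1 other protein-coding gene between neighbours. The deposited gene length equalled a RefSeq transcript length for 5 of 39 members, so the counted gene models differ from those shown. The files carry no coordinates. The shared stretch itself is not reported here. Figures were drawn with matplotlib 3.10.9.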

Additional observations from a re-analysis of the deposited data

How the results depend on the processing

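Over 19 alternatives, the number of members that changed under stress in ahl10-1 ranged from 11 to 17 (15 as reported). It was 16 with a replicate block, 15 with that block in the ahl10-1 libraries alone, 17 by DESeq2, and 11 to 16 when 1 library was left out, with 11 without ahl10-1 stress replicate 2 and 11 without ahl10-1 control replicate 3. For WT, as description only, the range was 11 to 17 (14 as reported). Members called between genotypes or for the interaction numbered 0 under every alternative run. No result past the threshold changed its direction under the alternatives run. Of members that did not pass, 5 changed sign when 1 ahl10-1 library was left out, with log2 fold changes of -0.13 to 0.023 for CRK2, -0.39 to 0.36 for CRK13, -0.25 to 0.073 for CRK22, -0.26 to 0.15 for CRK25 and -0.082 to 0.24 for CRK36. The calls of CRK20 (11 alternatives), CRK15 (5), CRK17 (4) and CRK27 (4) were lost most often. FLS2 (3 alternatives) and PDLP8 (4 alternatives) also lost theirs. The AHL10 difference in control had an adjusted p of 0.326 with the control libraries alone and a replicate block, at a log2 fold change of -1.01, where few residual degrees of freedom remain. The same limit holds for every result from the ahl10-1 libraries alone with a replicate block, whether a call was made or lost there. A replicate block ended the calls of CRK20 and PDLP8 and made calls of CRK14, CRK21, CRK31, EP1 and AT1G70740, in all 12 libraries or in the ahl10-1 libraries alone, and it changed no other call of a named gene under stress in ahl10-1. Of the plasmodesmata-located proteins, 3 changed with the compared groups alone and 2 to 6 when 1 library was left out, the lowest without ahl10-1 stress replicate 2. Of the signalling partners, 7 changed with the replicate block in the compared groups alone, and 2 to 5 when 1 library was left out, with 2 without ahl10-1 stress replicate 1 and 2 without ahl10-1 stress replicate 3. For these counts the cause was not tested. Depth limits the members below 1 RPKM: CRK7, CRK20, CRK23, CRK31, CRK37, CRK38 and CRK39 rest on at most 26 reads in a library.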
